A study of Mus musculus with 16 samples.

Results

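The mRNAs of P19 cells, a mouse embryonal carcinoma line that can be turned into neurons, were measured after a mimic of the miRNA let-7a and an siRNA against Sfpq were given apart and together. What is described here is the departure of the combined treatment from additivity, which was read on all 16 arrays of the series, 4 in each of the groups control (ctrl), let7, siSFPQ and let7+siSFPQ. The mimic and the siRNA were used at 24 nM, total RNA was collected after 48 h, and each Cy3-labelled sample was hybridized alone to an array. The labels call the reference group only control, and whether the groups received the same total amount of small RNA is not given in the sources used here. Each group is a transient transfection of the same line, and the arrays give mRNA levels, not those of let-7.

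For each gene, the departure is the log2 change with let7 inside the knockdown (let7+siSFPQ minus siSFPQ) minus the log2 change with let7 outside it (let7 minus ctrl). A departure of 0 means that the fold changes of the treatments multiply. A departure above 0 means that the level with both treatments was higher than the sum of the single log2 changes, called here the additive expectation, and a departure below 0 means that it was lower. A departure was available for 18249 genes whose probes stood well above background throughout the 4 arrays of some group, and 15708 of them were well above background on every array. Levels are log2 of the normalized intensity, so that they can be compared between samples for a gene but not between genes.

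Let-7 is a family of miRNAs that accumulates when embryonic cells differentiate. A miRNA loaded on an Argonaute protein pairs through its seed with messenger RNAs, mostly in their 3′UTR, and lowers their stability and translation. Known targets of let-7 include Lin28a, which in turn blocks let-7 maturation, the chromatin protein gene Hmga2 and RNAs for growth and cell cycle proteins. Sfpq is a nuclear RNA-binding protein of the family that also holds Nono and Pspc1, and it takes part in transcription, splicing and the nuclear bodies called paraspeckles. The study asked whether Sfpq alters how Argonaute 2 and let-7a reach their targets, and the 2 by 2 design lets the response to let-7a be compared with and without the knockdown. The mature strand is shown because the departure and the contrasts with let7 below turn on it, with its seed, bases 2 to 8, in capitals. It is taken from RefSeq, where the copy of Mirlet7a-1 lies on the minus strand of GRCm38.p6 at chr13:48538239-48538260.
mmu-let-7a-5p: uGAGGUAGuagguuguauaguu

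Of 10 markers of embryonal carcinoma cells, 9 were well above background in control and Zfp42 was not. The 5 neuron markers and the 8 fibroblast markers were also well above background in control. So were 3 of 5 blood markers (Cd68, Csf1r and Cd3e) and 2 of 6 primitive endoderm markers (Gata6 and Dab2), while Gata4 and Sox7 were so in some treated groups and Ptprc, Hbb-b1, Sox17 and Afp in none. The number of spots well above background ranged from 33733 to 38464 of 59305 per array, and no spot was saturated. Over 432 probes with repeat spots, arrays 1 and 2 of a group differed by a median of 0.048 to 0.063 log2 units, about as little as repeat spots of a probe within an array (0.055 to 0.065) and less than any other pair of arrays of a group (0.087 to 0.32). Over all genes tested, arrays 1 and 2 differed by 0.056 to 0.071, most in let7+siSFPQ, and other pairs by at least 0.111. Their mean was therefore used as 1 sample, which left 12 samples, 3 in each group. Values given in threes below follow the order replicates 1 and 2, replicate 3, replicate 4. Nothing in the labels says that the replicates came from separate cultures, so the p-values measure the spread between these samples, which may be technical.

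Replicate 3 stood apart from the other replicates. The standard deviation of the departure over all genes was 0.54 in replicates 1 and 2 and 0.64 in replicate 4, but 0.34 in replicate 3. Departures of at least 1 log2 unit in size were seen for 6.98% and 9.55% of genes in the former and for 2.21% in replicate 3. Across the 18249 genes, which are not independent of each other, the departures of replicates 1 and 2 correlated with those of replicate 4 (r = 0.72) and much less with those of replicate 3 (r = 0.16), and the r of replicates 3 and 4 was 0.15. These values describe separate sets of samples. They were the reason to give results below with and without replicate 3, as well as replicate by replicate. As replicate 3 was singled out for its small departures and 2 samples per group remain without it, p-values without it follow a choice made on the outcome and are a description.

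**Figure D1:**
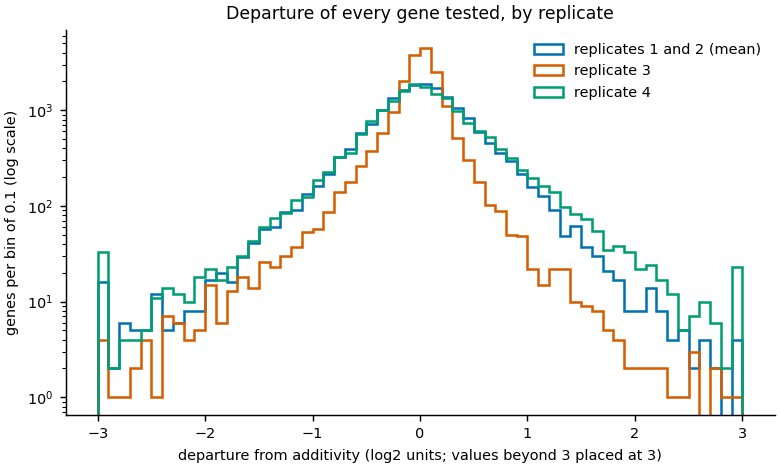
Number of genes (log scale) in bins of 0.1 log2 units of the departure from additivity, for the 18249 genes in each of the 3 replicates of the design. The curve of replicate 3 is narrower than those of replicates 1 and 2 (mean) and replicate 4, with standard deviations of 0.34, 0.54 and 0.64.

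The depth of the knockdown differed between the 2 arms of the design in replicates 1 and 2 and in replicate 4, but not in replicate 3. Sfpq levels were 12.07, 11.98 and 11.98 in control and 12.04, 11.998 and 11.90 with let7. They were 10.56, 11.47 and 10.61 with siSFPQ, and 11.31, 11.50 and 11.40 with let7+siSFPQ. All samples with the siRNA were below all samples without it, and in replicates 1 and 2 and in replicate 4 the siRNA left more Sfpq RNA when let-7a was present. The siRNA changed Sfpq by −1.51, −0.51 and −1.37 log2 units without let-7a and by −0.73, −0.50 and −0.49 with it. The departure of Sfpq was 0.56 ± 0.27 log2 units (SE, n = 3 per group, 95% interval −0.04 to 1.15), which did not pass limma's test over all genes (adjusted p = 0.806, and 0.276 with the replicate block). Without replicate 3 it was 0.83 (adjusted p = 0.00175). A shallower knockdown with let-7a therefore moved together with the departures described below in replicates 1 and 2 and in replicate 4, and its part in them was not tested.

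Among the partners of Sfpq, Pspc1 departed furthest in a direction that every replicate shared. Its levels were 11.02, 11.01 and 11.12 in control, 11.12, 11.09 and 11.05 with let7, 11.87, 11.92 and 11.89 with siSFPQ and 11.53, 11.62 and 11.63 with both. Pspc1 rose with siSFPQ in every replicate to about the same level, also in replicate 3 (0.85 log2 units over all samples, adjusted p = 0.00219). With let-7a present it lay between the control and the knockdown levels, without overlap, and the departure was −0.34 ± 0.11 (SE; adjusted p = 0.752). Nono, which forms dimers with Sfpq, departed by 0.07 ± 0.09, with an interval of −0.14 to 0.27. Neat1, the RNA on which paraspeckles are built, had departures of 1.18, −0.29 and 1.16 in the replicates, so that its direction was not shared by replicate 3. Of the 14 genes of the family and of paraspeckles, 7 lay above and 7 below 0, with a median of −0.01.

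No gene passed an adjusted p of 0.05 for the departure over all arrays in limma, 0% of 18249 tested, and the smallest adjusted p was 0.172. At an unadjusted p under 0.05, 602 genes lay above 0 (3.3%) and 552 below 0 (3.02%). With the replicate number as a block, 4 genes passed (0.0219%), all of them below 0. Without replicate 3, 4063 genes passed (22.3%), 2233 above 0 (12.2%) and 1830 below 0 (10%). Each single contrast called more genes than the departure did over all arrays: let7 against control gave 897 higher (4.92%) and 373 lower (2.04%), siSFPQ against control gave 1152 higher (6.31%) and 1338 lower (7.33%), and let7 within the knockdown gave 1124 higher (6.16%) and 751 lower (4.12%). The contrasts with let7 share no sample with each other but each shares its samples with the departure, so they are given side by side only.

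A missing call is not additivity, and the interval of each departure shows how much the data bound it in the fit used. That fit left out the pairing of samples by replicate number. So did all SE, intervals and adjusted p-values given here without another setting. The median SE of a departure was 0.26 in it and 0.17 with the replicate block. The 95% interval lay inside ±1 log2 unit for 11798 genes (64.7%) and inside ±0.5 for 3406 (18.7%). These counts depended on the fit, as 14464 and 7195 genes lay inside the bounds with the replicate block and 8328 and 838 without replicate 4. The median departure was 0.01 log2 units, with 9411 genes above and 8838 below 0, and 525 genes (2.88%) departed by 1 log2 unit or more in size. Spread depended on level: the standard deviation of the departure was 0.57 when genes were split into 4 equal classes by level, in the dimmest class, and 0.40, 0.31 and 0.23 in the next ones. A departure was above 0 in all 3 replicates for 4342 genes (23.8%) and below 0 in all 3 for 3700 (20.3%). These shares are the background for the counts of each group of genes below.

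Among genes well above background on every array and with a departure of shared sign in the replicates, the 2 furthest below 0 were each raised by either treatment, and had lower levels with both than with let7 alone. Ptchd1, a membrane protein gene of the patched domain family, had levels of 5.66, 5.25 and 5.48 in control and 7.74, 7.41 and 7.52 with let7. With siSFPQ they were 7.69, 6.25 and 7.20, and with let7+siSFPQ 6.55, 6.22 and 6.21. Every sample of the treated groups lay above the controls, and those of let7+siSFPQ lay below all of let7 and at or below the lowest of siSFPQ apart from replicates 1 and 2. Ptchd1 rose by 2.09 log2 units with let7 (adjusted p = 0.00201) and by 1.58 with siSFPQ (adjusted p = 0.0105), whereas both treatments gave 0.86 over control in place of the expected 3.67. The departure was −2.81 ± 0.42 (SE), with −3.21, −2.19 and −3.03 in the replicates, an adjusted p of 0.269 over all arrays and of 0.0173 with the replicate block.

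Rnf182, which encodes a ubiquitin ligase with a RING finger, showed the same pattern. Its levels were 6.24, 6.38 and 6.10 in control, 7.86, 7.12 and 7.57 with let7, 8.15, 7.43 and 8.07 with siSFPQ, and 6.85, 6.53 and 6.77 with both. The combined samples lay above all controls and below all samples with a single treatment. Let7 raised Rnf182 by 1.27 log2 units outside the knockdown (adjusted p = 0.00755) and changed it by −1.17 inside it (adjusted p = 0.0145), and the departure was −2.44 ± 0.33 (adjusted p = 0.172, and 0.0173 with the replicate block). The remaining genes that passed with the replicate block were Ecel1, which encodes a neuronal endopeptidase, and Pdlim3, which encodes an actin-associated LIM protein. Ecel1 levels were 8.99, 7.74 and 9.10 in control, 10.52, 8.92 and 10.67 with let7, 9.39, 8.20 and 9.45 with siSFPQ and 9.04, 8.12 and 9.06 with both, so that within each replicate the highest sample was the one with let7 alone. The departure of Ecel1 was −1.70 ± 0.74 (adjusted p = 0.779, and 0.0207 with the block), and that of Pdlim3 was −1.38 ± 0.35 (adjusted p = 0.752, and 0.0223 with the block). Replicate 3 was on the side of the others for these 4 genes, with departures of −2.19, −1.64, −1.26 and −1.26.

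Further genes with departures far below 0 had differing single effects. Sybu (syntabulin, a linker of cargo to kinesin), Cnksr2 (a synaptic scaffold) and Cplx3 (a complexin of synaptic vesicle release) rose with let7 outside the knockdown and had smaller changes with it inside. Sybu rose by 3.76 log2 units with let7 outside (adjusted p = 0.000298) and by 1.72 inside it (adjusted p = 0.0161), and its departures were −2.40, −2.03 and −1.68. Cnksr2 rose by 2.05 outside (adjusted p = 0.0011), and its change inside was 0.30 (adjusted p = 0.484), with departures of −1.89, −1.48 and −1.86. St3gal6, a sialyltransferase gene, rose with siSFPQ and not with let7. It had siSFPQ levels of 10.11, 8.04 and 10.13 against 7.65, 7.63 and 7.71 in control, 7.67, 7.58 and 7.77 with let7, and 7.57, 7.49 and 7.52 with both. All combined samples of St3gal6 were thus below the controls, and its departure was −1.91 ± 0.60 (adjusted p = 0.752), with −0.50 in replicate 3.

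On the opposite side, the largest departures above 0 chosen in the same way were those of Pmepa1, an inhibitor of TGF-beta signalling, and of Gm14243. Pmepa1 levels were 12.20, 12.02 and 12.10 in control, 11.23, 11.84 and 10.95 with let7, 10.61, 11.84 and 10.41 with siSFPQ and 11.97, 11.90 and 11.92 with both. In the groups with a single treatment replicate 3 was closer to control than the other samples were, and the combined samples lay just below all controls and above all samples with a single treatment. The departure of Pmepa1 was 1.74 ± 0.45 (adjusted p = 0.752), with 2.32, 0.24 and 2.66 in the replicates and 2.49 without replicate 3 (adjusted p = 0.000284). Of the 24 genes with the largest departures of shared sign among the 7003 genes of shared sign that were well above background on every array, 12 on each side, replicate 3 gave the value closest to 0 for all 12 above 0. Among the 12 below 0 it did so for 11, the exception being Sybu.

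Genes called for each treatment were grouped by whether the changes ran the same way. Genes higher with let7 and lower with siSFPQ numbered 268, with medians of 1.29 and −1.13 log2 units. Their median combined change was 0.14 against an expected 0.12, 131 lay above and 137 below 0, and 145 had an interval inside ±1. For the 57 genes lower with let7 and higher with siSFPQ, the combined median was −0.10 against −0.05. Of these, 17 lay above and 40 below 0, and 51 had an interval inside ±1. The 52 genes higher with each had a combined median of 1.02 against 1.92, with 50 of 52 below 0 and 16 intervals inside ±1, and the 15 genes lower with each had −0.69 against −1.45, with all 15 above 0 and 3 intervals inside ±1. Without replicate 3, 47 of the 268 genes passed above and 20 below 0, beside 12.2% and 10% of all genes. Of the 57 genes, 1 passed above and 4 below 0. In the classes of shared direction, 35 of the 52 passed below 0 and all 15 passed above 0. These genes were chosen on control, let7 and siSFPQ samples that also enter the departure, which by itself draws the departure of genes chosen for change in the same direction toward the opposite sign, so the counts describe them and carry no test.

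Classes formed after these values were seen took genes whose changes were at least 1 log2 unit in the mean of 2 replicates. The departure was read in the replicate left out, which may not be independent of the others, as nothing says the replicates were separate cultures. Read in replicate 3, 17 of 25 genes higher with each treatment lay below 0 (68%) and 8 of 9 genes lower with each lay above it, with medians of −0.32 and 0.24. In the same replicate 93 of 115 genes higher with let7 and lower with siSFPQ lay below 0 (80.9%, median −0.23), against 46.1% of all genes. Read in replicates 1 and 2 or in replicate 4, that class held 13 and 14 genes and its medians were 0.24 and 0.26, on the other side of 0. Of these genes 23.1% and 35.7% lay below 0, beside 48.6% and 49.3% of all genes. The genes higher with each numbered 2 and 3 there, and all lay below 0. The classes read in each replicate are different sets of genes, so their signs are no comparison of the replicates.

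Large opposite effects added up closely in some genes. Of genes well above background on every array, 74 had both single effects called, of opposite sign and at least 1 log2 unit in size, and the 6 with the smallest departure were Ptpro, Pcdhb20, Cavin2, Eya2, Fam78b and Nnat. Cavin2, a coat protein gene of caveolae, had levels of 7.30, 7.19 and 7.31 in control, 10.21, 9.57 and 9.97 with let7, 6.08, 6.65 and 5.84 with siSFPQ and 8.91, 8.79 and 8.83 with both. The 4 groups did not overlap, and the departure was 0.01 ± 0.29 with an interval of −0.64 to 0.65. Eya2, a transcriptional coactivator and phosphatase, rose by 2.49 log2 units with let7 outside the knockdown and by 2.48 inside it, from levels of 11.23, 10.31 and 11.15 in control and 8.76, 9.22 and 8.83 with siSFPQ. They were chosen for being near 0, so their departures are a description and their sign changes with small changes of the processing.

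The mesoderm transcription factor gene T, also called Brachyury, was another gene on which the treatments acted in opposite directions. Its levels were 10.28, 9.83 and 10.36 in control, 7.75, 8.02 and 7.83 with let7, 12.30, 11.35 and 12.56 with siSFPQ and 9.96, 8.82 and 10.25 with both. T fell by 2.29 log2 units with let7 outside (adjusted p = 0.00358) and fell by 2.39 inside the knockdown (adjusted p = 0.00477), with no overlap between samples with and without let-7a in either arm. The departure was −0.10 ± 0.51, and its interval of −1.22 to 1.01 holds changes of about a factor of 2 either way.

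**Figure D2:**
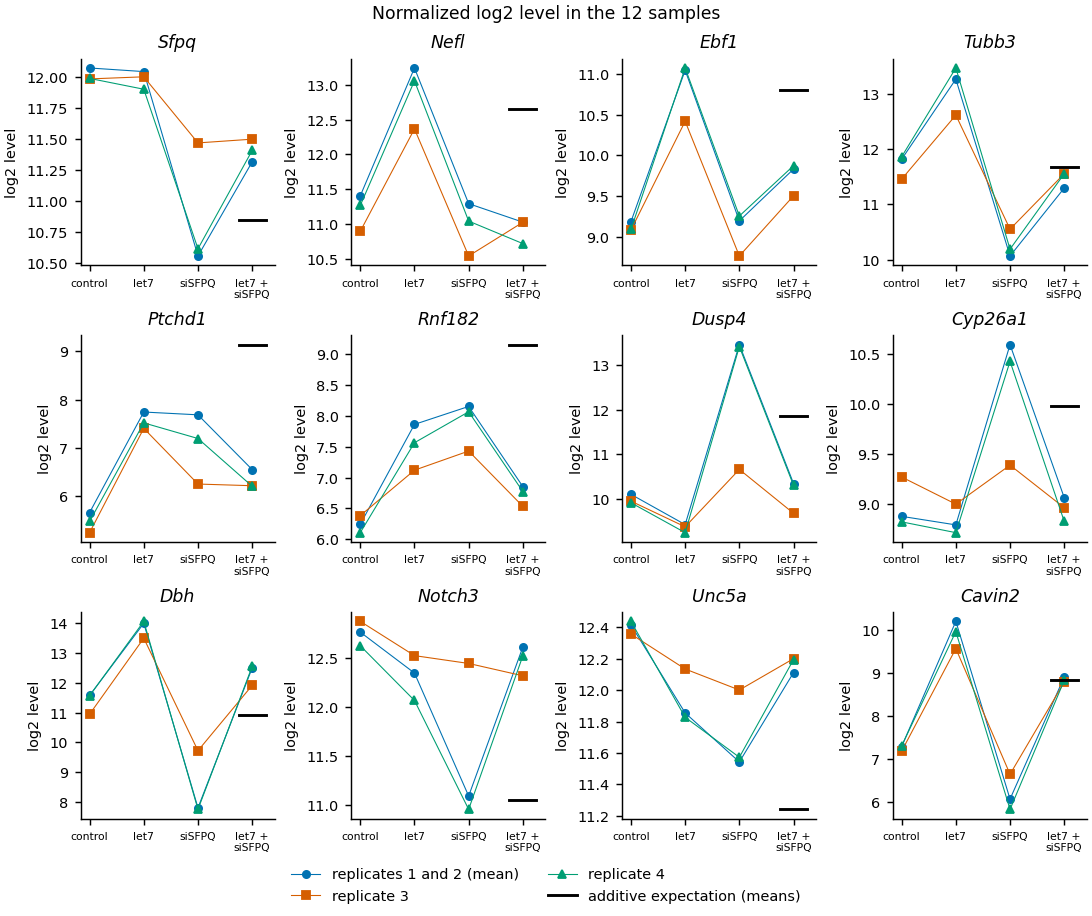
Normalized log2 level (vertical axis of each panel) of 12 genes in the 4 groups, with thin lines joining the samples of a replicate and a black bar at the level expected if the mean log2 changes added up. Ptchd1, Rnf182, Nefl and Dusp4 lie below the bar with both treatments, Sfpq, Dbh, Notch3 and Unc5a above it, and Tubb3 and Cavin2 near it.

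Neuronal genes were the group with the lowest median departure. Let7 raised 23 of the 35 genes for the neuronal cytoskeleton, RNA-binding and adhesion outside the knockdown and 18 inside it (beside 4.92% and 6.16% of all genes), and siSFPQ lowered 19 (beside 7.33%). The median change was 1.16 log2 units with let7 outside the knockdown, 0.71 inside it and −0.86 with siSFPQ, and with both treatments it was 0.06 against an expected 0.38. The departure was below 0 for 27 of 35 genes and below 0 in all 3 replicates for 22 (62.9%, beside 20.3% of all genes). The median departure was −0.29 log2 units, with −0.26, −0.41 and −0.33 in the replicates, beside 0.01 for all genes, and it stayed between −0.38 and −0.26 under each alternative processing. No member passed the test over all arrays, whereas 13 passed below 0 and 2 above 0 without replicate 3 (42.9%, beside 22.3% of all genes).

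The neurofilament genes, which encode the intermediate filaments of axons, differed among themselves. Nefl levels were 11.40, 10.89 and 11.27 in control, 13.24, 12.37 and 13.06 with let7, 11.29, 10.54 and 11.04 with siSFPQ and 11.03, 11.02 and 10.72 with both. Let7 raised Nefl by 1.70 log2 units (adjusted p = 0.00201) with no overlap with control, whereas inside the knockdown the samples with and without it overlapped and the change was −0.04 (adjusted p = 0.947). The departure of Nefl was −1.74 ± 0.34 (95% interval −2.49 to −0.99, adjusted p = 0.585), with −2.11, −0.99 and −2.12 in the replicates. Nefm levels were 10.62, 9.68 and 10.43 in control, 12.47, 11.53 and 12.27 with let7, 9.35, 9.27 and 9.17 with siSFPQ and 10.31, 10.29 and 10.05 with both. Unlike Nefl, Nefm fell with siSFPQ (adjusted p = 0.0306) and rose with let7 inside the knockdown by 0.96 (adjusted p = 0.0403), and its departures of −0.89, −0.83 and −0.95 were almost equal in the replicates. Nefh departed by 0.12 ± 0.21.

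Other neuronal genes with departures of shared sign were Celf3, a splicing regulator, the stathmin genes Stmn3 and Stmn4, and the tau gene Mapt. Mapt rose with let7 in either arm, by 1.81 (adjusted p = 0.000279) and 1.22 (adjusted p = 0.00315), with a departure of −0.60 ± 0.24 (adjusted p = 0.77). Stmn3 departed by −0.86 ± 0.30 and Celf3 by −1.17 ± 0.61.

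Tubb3, the neuronal tubulin used as a marker of early neurons, had a departure below 0 that was near the list median of −0.29. Its levels were 11.81, 11.45 and 11.86 in control, 13.26, 12.61 and 13.46 with let7, 10.07, 10.55 and 10.19 with siSFPQ and 11.29, 11.55 and 11.55 with both. The combined samples overlapped the controls, and the departure was −0.21 ± 0.30 (interval −0.85 to 0.44). Map2, the dendritic microtubule protein gene, departed by 0.24 ± 0.27, and the stathmin gene Stmn2 by 0.53 ± 0.40, with 0.83 without replicate 3 (adjusted p = 0.000675). Of the 35 genes, 7 were not well above background on every array, Dcx and Rbfox3 among them. Fibroblast and neuron markers were detected in all groups, and how far the neuronal RNA came from a few differentiating cells or from all cells cannot be told apart in bulk RNA, as fewer cells of a type and less RNA per cell give the same level.

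**Figure D3:**
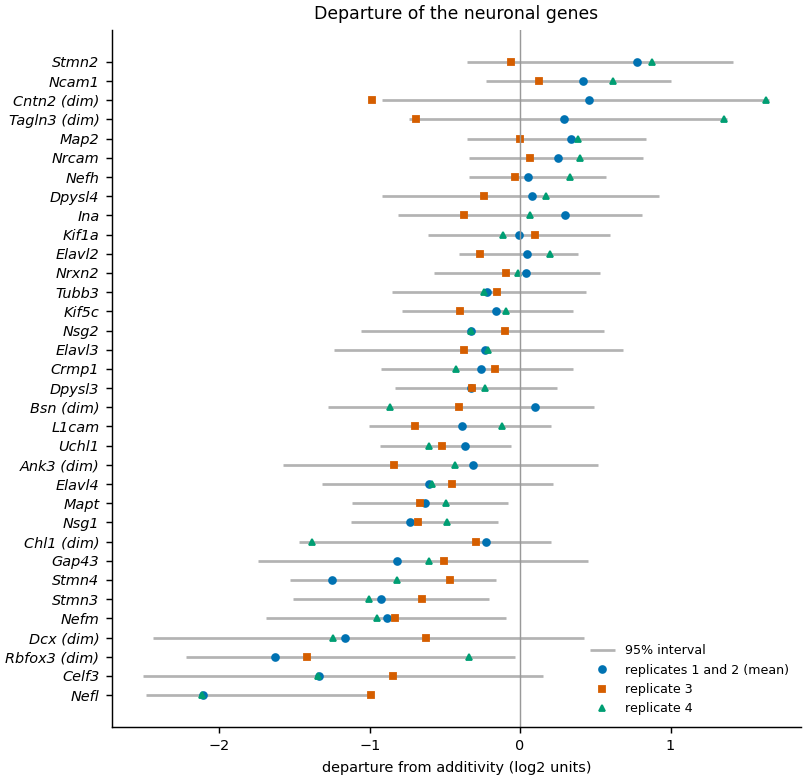
Departure from additivity (horizontal axis, log2 units) of 34 of the 35 neuronal genes, with the 95% interval of the fit in grey and the 3 replicates as points; dim marks genes not well above background on every array. Departures were below 0 for 26 of the 34 genes drawn, from Nefl at −1.74 to Stmn2 at 0.53.

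Transcription factor genes of neuronal differentiation were split. Among 23 proneural and neuronal transcription factor genes, only 9 were well above background on every array. Of the 23, 12 lay above and 11 below 0, while on the linear scale 3 lay above 0. The median of 0.07 ran from −0.26 to 0.23 over the alternatives. Neurog3, a bHLH factor that starts neuronal and endocrine programmes, had levels of 7.52, 7.74 and 7.63 in control, 8.80, 8.41 and 8.85 with let7, 6.18, 7.67 and 5.90 with siSFPQ and 9.13, 8.75 and 9.18 with both. Let7 raised Neurog3 by 2.44 log2 units inside the knockdown (adjusted p = 0.00434), its change outside was 1.06 (adjusted p = 0.11), and the departure was 1.38 ± 0.51 (adjusted p = 0.758). Ebf1, a factor of neuronal differentiation, departed the other way. Its levels were 9.18, 9.08 and 9.09 in control, 11.05, 10.42 and 11.07 with let7, 9.19, 8.76 and 9.25 with siSFPQ and 9.83, 9.50 and 9.87 with both. Ebf1 rose by 1.73 with let7 outside (adjusted p = 0.000684) and by 0.67 inside the knockdown (adjusted p = 0.0485), with a departure of −1.06 ± 0.27 and values of −1.23, −0.60 and −1.37.

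The noradrenergic genes held both large signs. Dbh, which encodes the enzyme that makes noradrenaline from dopamine, had levels of 11.57, 10.95 and 11.56 in control, 13.99, 13.49 and 14.05 with let7, 7.81, 9.73 and 7.76 with siSFPQ and 12.49, 11.91 and 12.54 with both. The groups were ordered in the same way in each replicate, with let7 highest and siSFPQ lowest. Dbh rose by 2.48 log2 units with let7 outside (adjusted p = 0.00643) and by 3.88 inside the knockdown (adjusted p = 0.00113), but its departures of 2.27, −0.36 and 2.29 were not of the same sign. Gch1, for synthesis of the tetrahydrobiopterin cofactor, and Gata3, a transcription factor of sympathetic neurons, departed by −1.41 ± 0.45 and −1.30 ± 0.53, with the same sign in each replicate. Th, which encodes tyrosine hydroxylase, was level in all groups, with a departure of −0.07 ± 0.14. Of 15 genes tested, 8 lay above and 7 below 0 (medians of 0.10, −0.19 and 0.35 in the replicates), and 1 was above and 5 below 0 in all 3 replicates. At an unadjusted p under 0.05 in limma, 3 lay above and 4 below 0 (46.7%, beside 6.32% of all genes). Without replicate 3, 6 passed above and 5 below 0 (73.3%, beside 22.3% of all genes).

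Genes of neurosecretory granules and synaptic vesicles had 17 members above and 18 below 0, and on the linear scale 9 of 35 lay above it. The median was −0.04 and became 0.06 without replicate 3, with 12 of 35 below 0 in all 3 replicates (34.3%). Cplx1, a complexin of vesicle fusion, rose by 1.65 log2 units with let7 outside (adjusted p = 0.00181), its change inside the knockdown was 0.76 (adjusted p = 0.0533), and its departure was −0.89 ± 0.32. Scg3, a granin of secretory granules, departed by −0.75 ± 0.37. For 22 regulators of neuronal splicing the median was 0.08 (−0.01 with normexp background correction), none passed an unadjusted p of 0.05, and Srrm4, the activator of neuronal microexons, had departures of 0.84, −0.24 and 1.31.

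**Figure D4:**
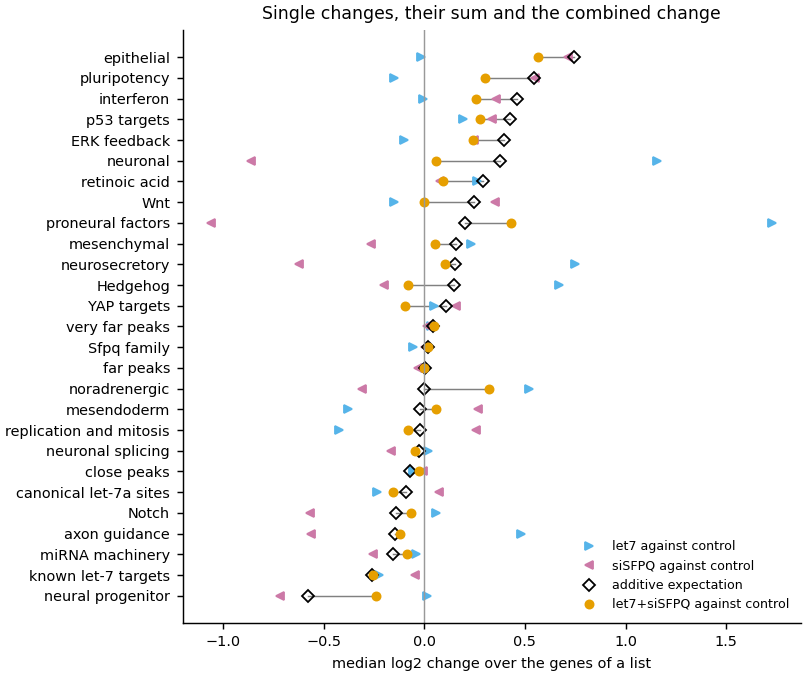
Median log2 change against control over the genes of each list (horizontal axis) with let7, with siSFPQ and with both, beside the median of the additive expectation, with a grey line from the expectation to the observed combined change. For the neuronal genes the combined median was 0.06 against an expected 0.38, and for the neural progenitor genes it was −0.24 against −0.58.

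Known let-7 targets lay on both sides of the sum. Of 37 genes tested, 20 lay above and 17 below 0, the median was 0.02 log2 units (0.00, 0.03 and −0.01 in the replicates), and 27 had an interval inside ±1 (73%, beside 64.7% of all genes). Without replicate 3, 7 passed above and 6 below 0, which is 35.1% of the list beside 22.3% of all genes. Their median response to let7 was −0.23 outside and −0.24 inside the knockdown over all samples. Replicate by replicate it was −0.32, −0.23 and −0.29 outside and −0.20, −0.18 and −0.21 inside, thus smaller in size inside in every replicate. Let7 lowered 6 of the targets outside and 10 inside the knockdown, where the shares of all genes were 2.04% and 4.12%. The sign of the median changed with the processing, between −0.04 and 0.05. Lin28a levels were 14.40, 14.34 and 14.42 in control, 13.43, 13.69 and 13.71 with let7, 14.56, 14.20 and 14.62 with siSFPQ and 13.77, 13.77 and 13.90 with both. All samples with let-7a were below all samples without it, and the departure was 0.13 ± 0.16, with an interval of −0.23 to 0.48. Hmga2 fell with let7 in either arm, with changes of −1.40 (adjusted p = 0.0115) and −1.50 (adjusted p = 0.0106), with a departure of −0.11 ± 0.39.

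A few let-7 targets departed more. Thbs1, for the matrix protein thrombospondin, departed by −1.02 ± 0.33, with −1.41, −0.25 and −1.40 in the replicates, and its changes with the single treatments were positive and did not pass the test. Igf1r, for the insulin-like growth factor receptor, had levels of 12.46, 12.47 and 12.67 in control, 12.80, 12.96 and 12.72 with let7, 11.26, 12.33 and 11.31 with siSFPQ and 12.49, 12.71 and 12.61 with both. Igf1r rose by 0.97 log2 units with let7 inside the knockdown (adjusted p = 0.0244), its departure was 0.68 ± 0.32, and replicate 3 lay at −0.11. Mycn, a proliferation factor of embryonic cells, departed by 0.87 ± 0.64.

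The 12 genes that the study names for a canonical let-7a site near an Sfpq peak had 6 members on each side of 0 and a median of 0.06, which was 0.01 with 75th percentile scaling. Their median response to let7 was −0.24 outside and −0.12 inside the knockdown, and 5 of 12 were above 0 in all 3 replicates (41.7%, beside 23.8% of all genes). Ash1l, for a histone methyltransferase, was the furthest. Its levels were 12.08, 11.74 and 12.16 in control, 11.66, 11.51 and 11.73 with let7, 11.44, 11.47 and 11.43 with siSFPQ and 12.08, 11.38 and 12.02 with both. In replicates 1 and 2 and in replicate 4 the combined level was close to that of control while each single treatment was lower, and the departure was 0.74 ± 0.25 (adjusted p = 0.752, and 0.000444 without replicate 3). Igf2bp1 and Hic2 departed by −0.40 ± 0.21 and −0.30 ± 0.19, and Map1b by −0.18 ± 0.17. Genes with a let-7a peak that the knockdown reduced close to an Sfpq peak numbered 329, of which 189 lay above and 140 below 0 (median 0.06), and 109 (33.1%) were above 0 in all 3 replicates beside 23.8% of all genes. Those with a far peak numbered 169 (88 above 0, median 0.01), and those with a very far peak 102 (46 above 0, median −0.04).

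Genes of neural progenitors had the highest median departure of the lists over all samples, though not in replicate 3. Of 24 tested, 17 lay above and 7 below 0, and 10 were above 0 in all 3 replicates (41.7%, beside 23.8% of all genes). The median was 0.27 log2 units, with 0.39, 0.04 and 0.42 in the replicates and between 0.22 and 0.40 over the alternatives. SiSFPQ lowered 11 of them (beside 7.33% of all genes) and let7 raised 1 (beside 4.92%), and the median combined change was −0.24 against an expected −0.58. Zic4, a zinc finger gene of the dorsal neural tube, had levels of 7.89, 8.02 and 8.07 in control, 7.85, 8.23 and 7.87 with let7, 6.31, 7.75 and 6.35 with siSFPQ and 7.57, 7.91 and 8.08 with both. The siSFPQ samples lay below all of control and let7, while the combined samples overlapped both control and siSFPQ, and the departure was 1.06 ± 0.45 (adjusted p = 0.779) with −0.04 in replicate 3. Fezf1, a forebrain repressor, departed by 1.05 ± 0.63. Sox2 departed by 0.20 ± 0.26 and Nes, for nestin, by 0.27 ± 0.22.

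Among Notch pathway genes, the receptor Notch3 departed most. Its levels were 12.77, 12.88 and 12.63 in control, 12.35, 12.53 and 12.07 with let7, 11.09, 12.45 and 10.96 with siSFPQ and 12.62, 12.32 and 12.53 with both. With siSFPQ alone the samples of replicates 1 and 2 and of replicate 4 were far below all others, and that of replicate 3 was not. The departure of Notch3 was 1.43 ± 0.43 (adjusted p = 0.752), with 1.94, 0.22 and 2.13 in the replicates. Of 24 Notch genes, 14 lay above 0 and 10 below it, with a median of 0.18 (0.27, −0.01 and 0.30 in the replicates), and the ligand Dll1 and the target Hes5 departed by −0.36 ± 0.28 and −0.26 ± 0.42.

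Axon guidance genes, of which 28 of 40 were well above background on every array, had 23 members above 0, but on the linear scale 14. Their median was 0.14, with 0.24, −0.09 and 0.27 in the replicates. Unc5a is a netrin receptor that repels axons. Its levels were 12.42, 12.36 and 12.44 in control, 11.86, 12.13 and 11.83 with let7, 11.54, 12.001 and 11.57 with siSFPQ and 12.11, 12.20 and 12.20 with both. Every combined sample lay above every sample with siSFPQ alone, and all but 1 of the let7 samples were below all combined samples, that of replicate 3 lying at 12.13. Unc5a fell by 0.70 with siSFPQ (adjusted p = 0.00944), its change with let7 was −0.47 outside the knockdown (adjusted p = 0.0505), and it rose with let7 by 0.46 inside it (adjusted p = 0.0422). The departure was 0.93 ± 0.18 (interval 0.54 to 1.32, adjusted p = 0.585), with 1.13, 0.42 and 1.24 in the replicates.

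Hedgehog and ventral neural tube genes had 7 of 19 members above 0 and a median of −0.18, with −0.17, −0.11 and −0.10 in the replicates. Gli2, a transcription factor of the pathway, departed by 0.74 ± 0.30. Hhip, which binds Hedgehog ligands, had departures of −2.14, 1.30 and −1.86, so that replicate 3 was opposite to the others. For retinoic acid genes the median was −0.06 over 20 members. The receptor Rarg and the degrading enzyme Cyp26a1 departed in opposite directions. Cyp26a1 levels were 8.88, 9.27 and 8.83 in control, 8.80, 9.004 and 8.72 with let7, 10.59, 9.39 and 10.43 with siSFPQ and 9.07, 8.97 and 8.83 with both, so that the siSFPQ samples were above all others and the rest overlapped. Cyp26a1 rose by 1.14 with siSFPQ (adjusted p = 0.0192), fell by 1.18 with let7 inside the knockdown (adjusted p = 0.0209), and departed by −1.03 ± 0.37. Rarg departed by 0.71 ± 0.16, with 1.01, 0.38 and 0.75.

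**Figure D5:**
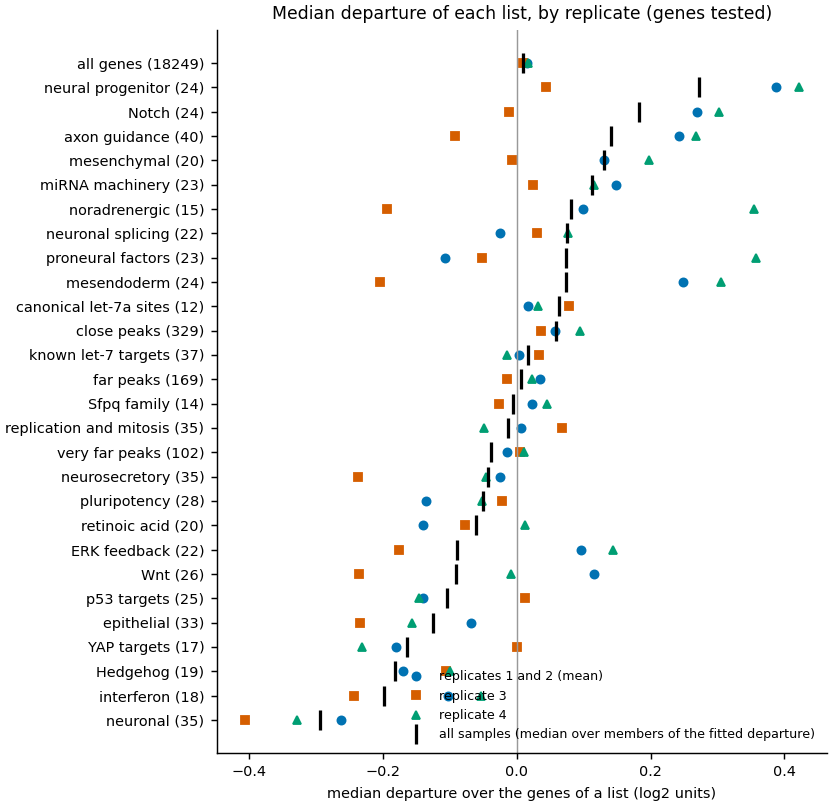
Median departure over the genes of each list (horizontal axis, log2 units) in each of the 3 replicates and over all samples, with the number of genes tested in brackets. The neuronal list lay at −0.26, −0.41 and −0.33 and the neural progenitor list at 0.39, 0.04 and 0.42, while the lists of known let-7 targets and of replication and mitosis stayed within 0.07 of 0 in each replicate.

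Pluripotency genes departed in both directions, from −1.03 to 0.78, with 13 of 28 above 0 and a median of −0.05 (0.01 with the brightest probe). An interval inside ±1 was found for 12 of 28 (42.9%, beside 64.7% of all genes), and without replicate 3, 5 passed above and 8 below 0 (46.4%, beside 22.3%). Pou5f1, the Oct4 gene, departed by 0.08 ± 0.21 and Nanog by −0.07 ± 0.15. Dnmt3l, a cofactor of DNA methylation, departed by −1.03 ± 0.70 and Tdgf1, a Nodal coreceptor, by 0.78 ± 0.41. The values of Tdgf1 were 1.22, −0.09 and 1.20 in the replicates, and it gave 1.21 without replicate 3 (adjusted p = 0.000387). The median of the mesendoderm genes, 0.07 over 24 genes, was split between the replicates (0.25, −0.20 and 0.30). The signal Nodal and its inhibitor Lefty1 were above 0. Nodal levels were 13.05, 13.07 and 12.89 in control, 11.54, 12.35 and 11.44 with let7, 12.60, 13.14 and 12.44 with siSFPQ and 12.73, 12.21 and 12.46 with both. Nodal fell by 1.22 with let7 outside the knockdown (adjusted p = 0.0113) with no overlap, its change inside was −0.26 (adjusted p = 0.531) with overlap, and the departure was 0.97 ± 0.34 with −0.21 in replicate 3. Lefty1 departed by 1.11 ± 0.40, with the same sign in each replicate. Among 26 Wnt genes, 8 lay above 0, and the median of −0.09 (0.11, −0.24 and −0.01 in the replicates) became 0.11 without replicate 3. Of the 26, 4 then passed above and 1 below 0 (19.2%, beside 22.3% of all genes). The ligand Wnt11 departed by −1.30 ± 0.53, with −0.08 in replicate 3 and −1.91 without it (adjusted p = 0.000769).

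Genes of ERK feedback had 10 of 22 members above 0 (median −0.09, and 0.05 without replicate 3). Dusp4, a phosphatase that inactivates ERK, had levels of 10.10, 9.95 and 9.91 in control, 9.42, 9.37 and 9.24 with let7, 13.46, 10.66 and 13.41 with siSFPQ and 10.34, 9.67 and 10.30 with both. The siSFPQ samples were above all others and by far so in replicates 1 and 2 and in replicate 4. Dusp4 rose by 2.52 with siSFPQ (adjusted p = 0.0183), fell by 2.40 with let7 inside the knockdown (adjusted p = 0.0261), and departed by −1.76 ± 0.80 (adjusted p = 0.788). Etv4, an ETS factor induced by ERK, departed by −1.42 ± 0.69, with −1.15 in replicate 3. The feedback genes Dusp6 and Etv5 departed by 0.07 ± 0.20 and 0.16 ± 0.18.

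YAP target genes had 4 of 17 members above and 5 below 0 at an unadjusted p under 0.05, beside 3.3% and 3.02% of all genes, and their median was −0.16. Nt5e, the ectonucleotidase CD73, had levels of 5.23, 5.02 and 5.51 in control, 6.28, 6.38 and 6.09 with let7, 8.73, 7.18 and 8.78 with siSFPQ and 8.24, 6.91 and 7.94 with both. Every treated sample was above every control, and the combined samples were below the siSFPQ sample of their replicate. Nt5e departed by −1.53 ± 0.59, with −1.54, −1.62 and −1.43, so that replicate 3 was at the level of the others. Ccn2, for a matricellular protein and a classical YAP target, departed by 1.10 ± 0.45, with 0.00 in replicate 3.

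Epithelial genes had 12 of 33 members above 0 and a median of −0.13 (−0.07, −0.23 and −0.16 in the replicates), and 15 were below 0 in all 3 replicates (45.5%, beside 20.3% of all genes). Without replicate 3, 0 of the 33 passed above and 5 below 0 (15.2%, beside 22.3% of all genes). The tight junction gene Cldn7 and the receptor Epha1 rose with siSFPQ, by 2.49 (adjusted p = 0.00708) and 3.21 (adjusted p = 0.00463), and departed by −1.26 ± 0.59 and −0.81 ± 0.52. The keratin Krt8 departed by −0.70 ± 0.25, whereas its partner Krt18 departed by 0.04 ± 0.23 and the adhesion gene Cdh1 by −0.14 ± 0.23. For 20 mesenchymal genes the median was 0.13 (0.13, −0.01 and 0.20 in the replicates, and −0.002 without replicate 4), and Vim, for vimentin, departed by −0.06 ± 0.16. The 8 fibroblast markers ran from Thy1, at −0.90 ± 0.75, to Col1a1, at 0.90 ± 0.57, with Col1a2 at −0.01 ± 0.26. Thy1 gave −0.02 in replicate 3 and −1.34 without it (adjusted p = 0.000352).

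Among 25 p53 targets, 10 lay above 0 and the median was −0.10 (−0.14, 0.01 and −0.15 in the replicates). The proapoptotic gene Bbc3 rose with each treatment and not further with both. Its levels were 10.66, 10.702 and 10.62 in control, 11.54, 11.37 and 11.49 with let7, 11.73, 10.79 and 11.65 with siSFPQ and 11.10, 11.28 and 11.06 with both. Bbc3 rose by 0.81 with let7 (adjusted p = 0.0327) and by 0.73 with siSFPQ (adjusted p = 0.0339), and departed by −1.05 ± 0.28, with −0.18 in replicate 3. Mdm2 departed by −0.07 ± 0.17. Of 18 interferon-stimulated and RNA sensor genes, 11 were well above background on every array. Among all 18, 6 lay above 0 (median −0.20, and 0.02 without replicate 3). Ifi35, induced by interferon, departed by −0.98 ± 0.39 with −0.81 in replicate 3, and Ddx58, the sensor RIG-I, by −0.80 ± 0.39, while Isg15 departed by −0.22 ± 0.25.

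Replication and mitosis genes were a list whose median combined change came close to the expected one. Their median changes were −0.42 log2 units with let7, 0.25 with siSFPQ and −0.08 with both, against an expected −0.02. The departure was above 0 for 16 of 35 genes, its median was −0.01, and 31 of 35 had an interval inside ±1 (88.6%, beside 64.7% of all genes). Without replicate 3, 6 passed above and 5 below 0 (31.4%, beside 22.3%). Mcm6 of the replicative helicase departed by 0.02 ± 0.11 and Mki67, for the Ki-67 antigen, by −0.18 ± 0.17. The cyclin gene Ccne1 and the licensing factor Cdc6 were further away, at 0.52 ± 0.22 and 0.68 ± 0.42, and Ccne1 gave 0.78 without replicate 3 (adjusted p = 0.00842). Among 23 genes of miRNA processing and silencing, 13 lay above 0 (median 0.11, with 0.15, 0.02 and 0.12 in the replicates and 0.17 without replicate 3), and 21 had an interval inside ±1 (91.3%). Ago2, whose product carries the miRNA, departed by 0.42 ± 0.18 (0.58, 0.12 and 0.56 in the replicates), Dicer1, which cuts the precursor, by 0.22 ± 0.12, and Drosha, the nuclear processing enzyme, by −0.04 ± 0.11.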

How the data were processed

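The authors deposited scanner intensities per spot, extracted with Feature Extraction 10.7.3.1. Per the file headers, the processed intensity is background-subtracted and detrended, and it is not normalized between arrays. The authors also deposited normalized log2 values, used as an alternative. No column of other samples was present (0). The processed intensity was taken to log2 and quantile normalized over 16 arrays with limma 3.58.1 in R 4.3.3 with the package data.table (version 1.17.8), outlier spots left out, and spots of a probe and then probes of a gene averaged. Probes were kept if they stood well above background throughout the 4 arrays of some group (24536 probes), 42 were dropped for a missing value, and names came from RefSeq accessions, symbols or synonyms where possible. Probes named by a genomic region (16194) or only by a probe ID (2711) were left out of the array's 55681 probes.

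Arrays 1 and 2 were averaged, and 4 group means were fitted in limma with an intensity trend, with Benjamini-Hochberg adjustment over 18249 genes, a threshold of 0.05, two-sided tests and 95% intervals. The replicate numbers pair the samples: deviations from the group means correlated with r of 0.53 to 0.70 in replicates 1 and 2, 0.45 to 0.71 in replicate 3 and 0.29 to 0.46 in replicate 4, and 12 of 12 samples correlated best with their own number. On simulated data with 12 samples, the fit recovered 44 of 100 planted departures of 1 log2 unit and 82 of 100 of 2 units. It made 5 false calls there. Both slides held all groups (arrays 1 and 2 on slide 2, arrays 3 and 4 on slide 1).

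The members, the 24 gene lists and the rules were chosen with earlier results of these data known. Genes named by rule were the 12 largest departures on each side of shared sign and well above background on every array, the 12 canonical genes, Sfpq, Nono and Pspc1, up to 3 per list, and the 6 smallest departures among large opposite effects. Other genes are list members or were chosen after their values were seen. Some list members stay in the counts and are not reported here by name. Alternatives were 75th percentile scaling, normexp with an offset of 50, other filters, a slide or replicate block, each replicate left out, arrays counted separately, the authors' values, the brightest probe, no trend, a linear scale and a size of at least 1. Figures were drawn with matplotlib 3.10.9, numpy 2.4.6 and pandas 2.3.3 in Python 3.11.15. The methods name 3 replicates and the labels 4.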

Additional observations from a re-analysis of the deposited data

Results flagged for a closer look

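For 21 of the genes followed, let7 moved every replicate one way outside the knockdown and every replicate the opposite way inside it. The difference between the arms was tested in limma as the departure, and none passed over all arrays (adjusted p between 0.172 and 0.863). With the replicate block in limma, Ptchd1, Rnf182 and Ecel1 passed (adjusted p of 0.0173, 0.0173 and 0.0207). The genes below control with let7 outside the knockdown and above siSFPQ inside it departed as follows: Pmepa1 (1.74), Ly6d (1.64), 4930535I16Rik (1.39), Csta2 (1.35), Unc5a (0.93), Gli2 (0.74), Rarg (0.71) and Pcna (0.48). Those above control outside and below siSFPQ inside it were Ptchd1 (−2.81), Rnf182 (−2.44), Pid1 (−1.98), Trim67 (−1.84), Ecel1 (−1.70), Nt5e (−1.53), Cldn7 (−1.26), Plk2 (−1.07), Ifi35 (−0.98), Syt5 (−0.86), Acta2 (−0.76), Meis2 (−0.72) and Krt8 (−0.70). Genes enter this account through signs in few samples, and many were followed because their departure was large.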

How the results depend on the processing

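No gene was called under 75th percentile scaling, normexp, the stricter filter, the slide block, the authors' values, the brightest probe, no trend, a size of at least 1, or without replicates 1, 2, 4 or 1 and 2. Without a filter on dim probes 5 of 27244 genes passed (B930025P03Rik, Lce1h, Pcdhb13, Pcdhb9 and Tmem169, none of them among the 18249), with 16 arrays counted separately 186, and with the replicate block 4. Leaving out replicates gave 0 to 4063 calls, the latter without replicate 3. Of 117 genes followed one by one, 99 passed without replicate 3, where 22.3% of all genes passed. With the arrays counted separately 23 of the 117 passed, beside 186 of 18249 genes. Many of the 117 were followed because their departure was large in these data, so these counts carry no support. With the replicate block 4 passed, and the cause of these differences was not tested. The replicate block, which the pairing calls for, changed no other call among them and left Sfpq at an adjusted p of 0.276.

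The count of genes with an interval inside ±0.5 was 7188 with normexp, 5584 without a filter, 5346 with 16 arrays and 7195 with the replicate block, and 838 to 5124 with replicates left out, lowest without replicate 4, 1064 without replicates 1 and 2 and highest without replicate 3. The departure of Sfpq was 0.40 to 0.83 with replicates left out. The median of the let-7 targets was −0.043 without a filter, 0.053 with the brightest probe and −0.019 to 0.047 with replicates left out. That of the neuronal genes was −0.38 without a filter. That of the genes with close peaks was 0.035 with 75th percentile scaling, 0.10 with the brightest probe and 0.043 to 0.090 with replicates left out. Without replicate 3, beside the lists for which the report gives it, medians moved by over 1.5 times to 0.22 for noradrenergic and mesenchymal genes, 0.32 for mesendoderm and Notch genes, −0.11 for pluripotency genes, 0.042 for proneural genes, −0.082 for epithelial genes, 0.036 for the Sfpq family, 0.025 for far and −0.014 for very far peaks. Medians of several lists also moved under other settings. Over all alternatives they ran from −0.15 to −0.02 for p53 targets and from −0.27 to −0.05 for Hedgehog genes. For noradrenergic genes the range was 0.003 to 0.42 and for mesendoderm genes −0.02 to 0.32. The median over all genes stayed between −0.003 and 0.016.

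Reversals were of departures near 0, apart from Onecut1 (−0.41 without a filter). With 75th percentile scaling they were Ptpro (0.081), Eya2 (0.10) and Nnat (0.038), with normexp Lamp2 (0.0084), Pcdhb20 (−0.23), Cavin2 (−0.32) and Fam78b (−0.24), and with the authors' values Pcdhb20 (−0.18), Cavin2 (−0.17) and Fam78b (−0.18). With 16 arrays they were Ptpro (0.028), Pcdhb20 (−0.036), Cavin2 (−0.013) and Eya2 (0.048), and with the brightest probe Nnat (0.0104). With replicates left out, Ptpro ran from −0.069 to 0.053, Pcdhb20 from −0.23 to 0.16, Fam78b from −0.064 to 0.19, Cavin2 from −0.16 to 0.13, Eya2 from −0.16 to 0.25, Bbx from −0.17 to 0.0047, Nnat from −0.16 to 0.15 and Lamp2 from −0.047 to 0.027. With genes that hold a close peak kept in, the median of the far peaks was 0.021, against 0.0055 with those genes left out. The median SE of a departure was 0.26 over all samples, 0.16 without replicate 3 and 0.17 with the replicate block. Departures of dim genes spread more than those of bright genes.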
